A study of Mus musculus with 12 samples.

Results

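The paired immunoglobulin-like receptors and leukocyte immunoglobulin-like receptors were followed through M2 polarization in bone marrow-derived macrophages of wild-type (WT) and miR-210 knockout (KO) mice. The members were chosen by gene family, as 10 symbols, Pira1, Pira2, Pira6, Pira7, Pira12, Pirb, Lilra5, Lilra6, Lilrb4a and Lilrb4b, of which 8 matched a gene among the 56941 of the count tables, while Pira6 and Pira7 had no match by symbol and are not analysed here. The family itself was selected on the measured difference of Pira2 between KO and WT in these libraries, so that difference is a description and carries no test. Pira13 and the pseudogenes Pira2-ps1 and Pira2-ps2 carry a family symbol too and are given beside the members.

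All mice were on the C57Bl/6J background, and KO and WT animals came from matings of miR-210 heterozygotes whose deletion had been made with a Gata-1 Cre. Age is not given in the sources used here. Monocytes purified from marrow became M0 macrophages in 7 days of culture in 20% fetal bovine serum and 30% L929 fibroblast medium, a source of M-CSF. M2 macrophages received IL-4 at 20 ng/mL for a further 72 hours and the M0 wells did not. Total RNA of 12 cultures, 3 per group, was sequenced after depletion of ribosomal RNA as stranded read pairs. The labels do not tie the 3 cultures of a group to separate animals, so a p-value here measures the spread between these samples, and each of the 4 groups carries a separate batch name, which means that batch cannot be told apart from group.

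Receptors of this family come in pairs with opposite signals. The PIR-A proteins, encoded by the Pira genes, have short tails and signal through the FcRγ chain, whose ITAM recruits the kinase Syk. PIR-B, encoded by Pirb, carries ITIMs, which Src-family kinases such as Lyn phosphorylate and which then dock the phosphatases SHP-1 and SHP-2. Both kinds bind MHC class I on nearby cells. Lilrb4a encodes the ITIM-bearing gp49B, a receptor for integrin αvβ3, and Lilrb4b encodes the closely related gp49A, which lacks ITIMs. Lilra5 and Lilra6 encode activating receptors.

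Pirb, Pira1, Pira2, Pira12 and Lilra6 lie on the minus strand of chromosome 7 of GRCm39 within 204 kb (chr7:3714408-3918531), with Pira13 and both pseudogenes between them. Lilra5 lies 322 kb further on the plus strand (chr7:4240644-4248739), and Lilrb4b and Lilrb4a stand 4.23 kb apart on chromosome 10 (chr10:51356728-51362799 and chr10:51367027-51372707). The cluster is on the same chromosome as Mir210, 137 Mb away from it. The annotation marks all 8 members as protein-coding genes.

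The genes of the cluster are near copies. Between Pira1 and Pira2, 17 of 2043 aligned coding bases differed, an identity of 99.2%. Identity was 97.9% between Pira2 and Pira12, 95.7% between Pira2 and Lilra6, and 94.6% between Pira2 and Pirb. Lilrb4a and Lilrb4b were 96.0% identical over 910 aligned bases, whereas Lilra5 shared between 60.2% and 65.7% with every other gene compared. The matrix of coding identity shows these 3 blocks.

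**Figure D1:**
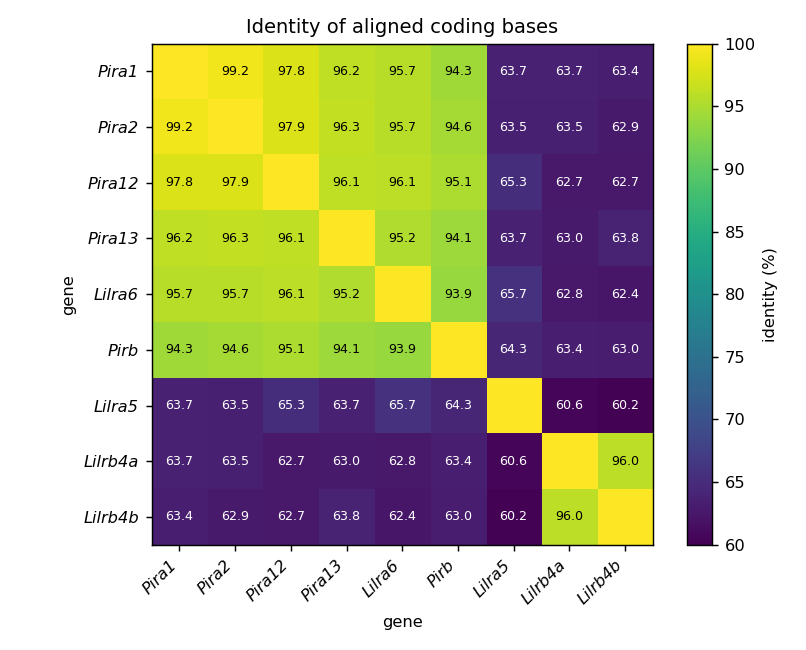
Percent identity of aligned coding bases between 9 genes, with genes on both axes and the value in each cell. The 6 genes of the chromosome 7 cluster form a block above 93%, Lilrb4a and Lilrb4b a pair at 96.0%, and Lilra5 stands apart below 66%.

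The stretch of 60 coding bases that best told Pira2 from its relatives lies in exon 3 of each gene, at coding bases 289 to 348. It is shown because a read can be assigned to a single copy only where the copies differ. The sequences are from GRCm39, read 5′ to 3′ on the minus strand, at chr7:3847340-3847399 in Pira2, chr7:3742178-3742237 in Pira1, chr7:3722643-3722702 in Pirb, chr7:3827958-3828017 in Pira13, chr7:3900401-3900460 in Pira12 and chr7:3917795-3917854 in Lilra6. Capitals mark bases that differ from Pira2, and in the line of Pira2 the positions at which any relative differs.
Pira2: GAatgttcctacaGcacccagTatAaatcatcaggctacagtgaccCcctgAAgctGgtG
Pira1: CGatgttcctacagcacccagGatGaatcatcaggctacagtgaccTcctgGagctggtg
Pirb: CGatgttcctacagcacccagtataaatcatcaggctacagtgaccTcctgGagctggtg
Pira13: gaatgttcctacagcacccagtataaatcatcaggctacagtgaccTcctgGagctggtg
Pira12: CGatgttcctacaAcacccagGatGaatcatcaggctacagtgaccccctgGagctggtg
Lilra6: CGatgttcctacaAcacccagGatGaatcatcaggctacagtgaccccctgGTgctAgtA

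Pira1 differed from Pira2 at 6 of these 60 bases, which is 6 of the 17 differences along the whole coding sequence. Pirb differed at 4, Pira13 at 2, Pira12 at 6 and Lilra6 at 9.

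Shared sequence limits how reads can be assigned. Of the stretches of 100 bases in the Pira2 transcript, 73.3% occurred exactly in Pira1, 24.8% in Pira12 and 15.3% in Pirb. In the other direction, 74.0% of the stretches of Pira1 occurred in Pira2. At 150 bases Pira2 still shared 67.0% with Pira1. The shares with other counted genes at 100 bases, all genes together, were 85.8% for Pira2, 79.2% for Pira1, 49.8% for Pira12, 25.2% for Pirb, 13.6% for Lilra6, 12.1% for Lilrb4b and 0 for Lilra5. Reads within a shared stretch have no single source, so the separate counts of Pira1, Pira2, Pira12, Pira13 and Lilra6 are uncertain. The same limit holds for Pirb and Lilrb4b in the 25.2% and 12.1% of stretches that they share. The whole Lilrb4a transcript is also part of Gm49339, a gene model that runs through Lilrb4b and Lilrb4a and held between 0 and 2 counts in each library. Gm15931, a gene model that shares 3.39% of the Pira2 stretches of 100 bases and 2.77% of those of Pira1, held between 154 and 302. For stretches of 50 bases its share was 22.3% for Pira12, 13.7% for Pira13 and 13.2% for Pirb. It was 11.2% for Pira2, 10.9% for Pira1 and 10.5% for Lilra6. Gm15931 itself stood higher with IL-4. Its normalized mean went from 160 ± 17.5 to 294 ± 38.8 in WT (SD, n = 3). For KO these means were 162 ± 16.4 before IL-4 and 268 ± 19.6 after. Whether its reads entered the low counts of Pira12 and Pira13 was not tested.

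The promoters of the cluster are near copies as well. The windows from 250 bases before to 50 bases after the gene start are from RefSeq (GRCm38.p6) and were found for 7 members and Pira13, with no entry for Lilrb4a. Capitals mark GAGGAAGT, the letters bound by the myeloid factor PU.1. The 3 windows shown belong to the gene that differed most between genotypes, its closest copy and the most abundant gene of the cluster, at chr7:3845002-3845301, chr7:3739868-3740167 and chr7:3720333-3720632 of GRCm38.p6, all on the minus strand.
Pira2: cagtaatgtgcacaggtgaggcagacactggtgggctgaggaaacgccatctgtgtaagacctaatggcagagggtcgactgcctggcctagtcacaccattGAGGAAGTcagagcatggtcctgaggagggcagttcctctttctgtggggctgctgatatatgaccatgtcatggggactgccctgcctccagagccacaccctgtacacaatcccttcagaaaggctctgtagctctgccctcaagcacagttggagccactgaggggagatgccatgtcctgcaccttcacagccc
Pira1: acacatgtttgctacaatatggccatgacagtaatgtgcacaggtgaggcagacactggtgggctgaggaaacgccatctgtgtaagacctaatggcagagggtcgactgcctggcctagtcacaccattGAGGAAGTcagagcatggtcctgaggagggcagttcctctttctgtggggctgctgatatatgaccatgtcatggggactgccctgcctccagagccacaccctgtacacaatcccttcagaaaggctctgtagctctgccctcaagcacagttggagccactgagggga
Pirb: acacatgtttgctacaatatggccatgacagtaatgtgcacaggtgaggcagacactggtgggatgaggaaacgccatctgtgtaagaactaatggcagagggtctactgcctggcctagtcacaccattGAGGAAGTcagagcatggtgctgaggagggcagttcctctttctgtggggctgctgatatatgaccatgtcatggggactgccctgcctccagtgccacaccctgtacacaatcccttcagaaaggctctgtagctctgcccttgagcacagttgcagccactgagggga

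The windows of Pira2 and Pira1 were 100% identical over the 272 bases that aligned, and Pira2 and Pirb were 97.1% identical over 272 bases. GAGGAAGT, searched on both strands, occurred in the windows of all 6 genes of the cluster, Pirb, Pira1, Pira13, Pira2, Pira12 and Lilra6, and in neither Lilra5 nor Lilrb4b. Of 32851 RefSeq promoter windows of the same length, 3.20% held it. The STAT6-type motif, TTC and GAA around 4 free bases, occurred in none of the 8 windows and in 6.95% of all windows, and the shorter TTCNNNGAA in Lilra5 and Lilrb4b and in 8.30% of all. The TATA box letters TATAAA occurred in Lilrb4b alone among the 8 and in 13.6% of all.

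The libraries held between 7930525 and 10167695 counts. For Mir210, the deleted gene, 1, 3 and 5 counts were found in WT M0, 1, 2 and 1 in WT M2, and 0 in all 6 KO libraries. The floor is 3 counts, and only the WT M0 library with 5 lay above it, so these counts cannot show the deletion. All 6 macrophage markers fixed for this report, Adgre1, Cd68, Csf1r, Itgam, Mertk and Fcgr1, had more than 3 counts in every library. All 4 IL-4 markers, Arg1, Retnla, Mrc1 and Chil3, rose with IL-4 in both genotypes. Without IL-4, Arg1 was called higher in KO, at 390 ± 81.3 normalized counts in WT M0 and 699 ± 105 in KO M0 (SD, n = 3). The log2 fold change was 0.85 ± 0.15 (SE, adjusted p = 0.034, edgeR quasi-likelihood test). Of the IL-4 markers 2 were tested between genotypes in M0 and 4 in M2, and no other was called. Over all genes edgeR called 0.22% higher in KO and 0.241% lower in M0, and 0.408% and 0.572% in M2. B cells, which also carry PIR proteins, left Ms4a1 at 0 in every library, and their 5 markers summed to between 5.80 and 10.5 CPM (counts scaled to the total of their library), nearly all on Cd79b. The 5 mast cell and basophil markers to at most 0.209, the 4 T and NK cell markers to at most 0.224, the 5 fibroblast markers to at most 2.27 and the 5 erythroid markers to at most 4.90. The 5 dendritic cell markers summed to between 0.319 and 0.984 CPM in M0 and between 10.0 and 17.6 in M2, almost all on Zbtb46, with Flt3 at 0 in both M2 groups. The 4 eosinophil markers rose from at most 0.513 to between 4.08 and 5.05 with IL-4, through Siglecf, with Ear1 at 0 in every group. The 7 neutrophil markers summed to between 0.820 and 2.77 CPM in WT M0, 2.45 and 5.32 in WT M2, 1.19 and 2.02 in KO M0, and 1.11 and 1.86 in KO M2, with Ly6g at 0 in every library. Among them S100a8 was called higher with IL-4 in WT, from 7.10 ± 3.66 to 28.4 ± 5.40 normalized counts (SD, n = 3). Macrophage and fibroblast sums were lower after IL-4 in both genotypes, without overlap. The fibroblast sums lie near the floor. Of their 5 markers 1 had more than 3 counts in every library of KO M0, and 0 did in each other group. WT macrophage sums were at least 3841 CPM before IL-4 and at most 3506 after it. KO sums were at least 3768 and at most 3715. Of the 6 macrophage markers, 1 was called higher and 2 lower in WT, and 0 and 3 in KO. Of all genes 22.1% were called higher and 20.9% lower in WT, and 17.4% and 16.4% in KO. Mertk changed by -1.33 ± 0.07 (log2) in WT and -0.90 ± 0.09 in KO, and Fcgr1 was called lower in both. The dendritic, eosinophil and macrophage sums thus moved with polarization in both genotypes, as did the fibroblast sums near the floor, and S100a8 in WT. The part of these markers in the results on polarization was not tested. In bulk RNA, fewer cells with a transcript and less of it per cell cannot be told apart.

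Levels are compared between genes as CPM per kilobase of the canonical transcript, by which they spanned more than 4 orders of magnitude. The canonical transcripts of Lilrb4b and Lilrb4a have 1836 and 1462 bases, while all annotated exons of these genes cover 5439 and 5252. For Pirb the lengths are 3859 and 4583, and for Pira1 both are 3462. The span and the gaps between genes depend on the length used, and with all exons the Lilrb4 genes would stand lower. In WT M0 macrophages Lilrb4b stood at 1156 ± 25.0 (SD, n = 3), Lilrb4a at 732 ± 40.3 and Pirb at 162 ± 13.7. The first activating gene, Pira1, followed at 4.16 ± 0.438. Lilra5 (0.195 ± 0.0360), Pira12 (0.161 ± 0.0992) and Lilra6 (0.135 ± 0.0841) overlapped, so their order is not resolved. Pira2 had the lowest mean, 0.0438 ± 0.0251, and its libraries overlapped with those of Lilra6. The order of the 4 upper genes was the same in WT M2, at 993 ± 37.0, 598 ± 29.9, 114 ± 6.31 and 3.04 ± 0.687.

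In KO macrophages Pira2 moved up this order. It stood at 2.79 ± 0.331 CPM per kilobase in KO M0, between Pira1 (4.99 ± 0.559) and Pira12 (0.393 ± 0.172). In KO M2 it reached 4.47 ± 0.546 and overlapped with Pira1 at 3.97 ± 0.297. The plot of levels along the cluster shows that Pira2 stood out from its direct neighbours on both sides.

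**Figure D2:**
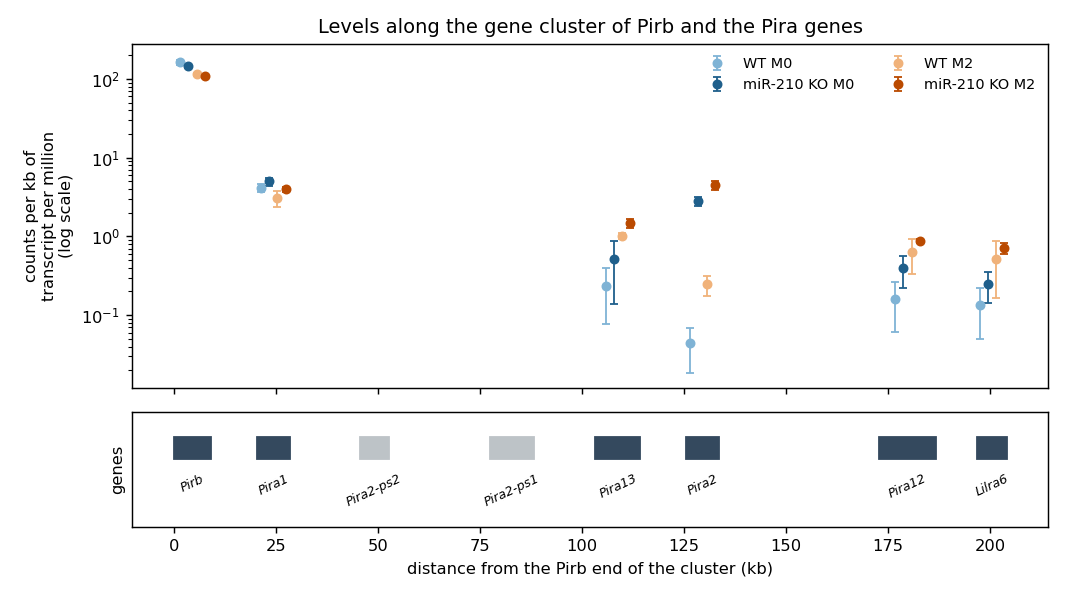
Upper panel, CPM per kilobase of transcript on a log scale for 6 genes of the chromosome 7 cluster, as mean and SD of 3 libraries in each of 4 groups; lower panel, the genes as boxes (pseudogenes in grey) by distance in kb from the Pirb end. Pira2 runs from 0.0438 in WT M0 to 4.47 in KO M2, while Pirb stays between 109 and 162.

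The abundant members were examined first for their response to IL-4, in each genotype. Pirb, the ITIM-bearing receptor of the pair, fell in both. The WT libraries held 5279, 5495 and 6269 Pirb counts before IL-4 (M0) and 3509, 4222 and 3729 after it (M2). The KO libraries held 5426, 5797 and 5505 before and 3625, 4036 and 3130 after. Every M2 library lay below every M0 library. The log2 fold change, M2 against M0, was -0.50 ± 0.07 (SE) in WT (adjusted p = 8.2e-05, edgeR quasi-likelihood test with Benjamini-Hochberg adjustment, n = 3 per group) and -0.44 ± 0.08 in KO (adjusted p = 0.00071). Calls required an adjusted p below 0.05 and a fold change of more than 1.2 in either direction, the limits of the study.

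Lilrb4a, which encodes the ITIM-bearing gp49B, fell as well. Its counts were 8002, 10974 and 10423 in the M0 state of WT and 7238, 8027 and 7472 in the M2 state. In KO they were 10865, 11308 and 10933 before IL-4 and 6737, 8088 and 6795 after. After scaling for depth the M0 and M2 libraries did not overlap in either genotype. Lilrb4a changed by -0.29 ± 0.07 on the log2 scale in WT (adjusted p = 0.0038, edgeR) and -0.42 ± 0.07 in KO (adjusted p = 0.00063, edgeR). Without the library numbered 2 of WT M0 or of WT M2 the WT change was -0.24 and -0.26, under the limit on the fold change.

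Lilrb4b, the most abundant member, reached 17035, 20089 and 20972 counts in untreated WT cells and 15103, 16984 and 15368 after IL-4. In KO cells it reached 20188, 19660 and 22848 without IL-4 and 13348, 17295 and 13601 with it. The log2 fold change was -0.21 ± 0.06 in WT, where an adjusted p of 0.014 (edgeR) came with a change too small to be called, and -0.31 ± 0.09 in KO, where the gene was called (adjusted p = 0.014, edgeR). The KO call was lost without the library numbered 3 of KO M0 (adjusted p = 0.052) or the library numbered 1 of KO M2 (adjusted p = 0.080). The share of Lilrb4b in the counts of both Lilrb4 genes stayed between 63.5% and 68.1% in all 12 libraries.

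Pira1, an activating gene, moved like the abundant members. In WT its counts went from 123, 123 and 146 without IL-4 to 70, 98 and 105 with IL-4. In KO they went from 175, 172 and 160 to 122, 126 and 105. After scaling, the WT groups overlapped and the KO groups did not. Its change of -0.44 ± 0.16 on the log2 scale was called in WT (adjusted p = 0.034, edgeR), and that of -0.32 ± 0.13 in KO was not (adjusted p = 0.075, edgeR). The WT call did not hold in the DESeq2 Wald test (adjusted p = 0.089) or without the library numbered 1 (adjusted p = 0.094) or 3 (0.090) of WT M0, or 1 (0.16) or 2 (0.090) of WT M2.

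Pira2, Pira12 and Lilra6, the other activating members in the cluster, stood higher with IL-4 in KO macrophages, the genotype in which they passed the filter on low counts. Pira2 went from 84, 93 and 111 counts without IL-4 to 135, 161 and 107 with it, which is 0.68 ± 0.15 on the log2 scale (adjusted p = 0.0032, edgeR), and the groups did not overlap after scaling. Pira12 went from 5, 8 and 13 counts to 17, 18 and 15, a change of 1.14 ± 0.35 (adjusted p = 0.024, edgeR). Lilra6 went from 5, 4 and 9 counts to 17, 16 and 12, a change of 1.5 ± 0.38 (adjusted p = 0.0080, edgeR). Pira12 and Lilra6 passed the filter through their M2 libraries, so the filter itself favoured a difference and their changes are a description. Pira12 kept its call only without the library numbered 3 of KO M0, with adjusted p between 0.053 and 0.081 when any other library was left out, and neither Pira12 (adjusted p = 0.13) nor Lilra6 (0.056) was called by the DESeq2 Wald test.

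In WT these 3 genes did not pass the filter on low counts of the edgeR fit of 6 libraries. Pira2 stood at 2, 1 and 1 counts without IL-4 and at 7, 6 and 9 with it, and the ratio of the summed counts, scaled for depth, was 5.81 with a 95% exact binomial interval from 1.97 to 23.2 that covers counting error only. Pira12 stood at 2, 2 and 6 counts without IL-4 and at 7, 12 and 17 with it, and Lilra6 at 3, 1 and 5 and at 4, 11 and 18. The groups of Pira2 and Pira12 did not overlap after scaling and those of Lilra6 did. Without the filter on low counts edgeR called all 3 higher, with log2 fold changes of 2.44 ± 0.70 for Pira2, which depends on the prior count, 1.90 ± 0.49 for Pira12 and 1.92 ± 0.52 for Lilra6. That fit called 3729 of 26379 genes higher in WT, beside 3150 of 14266 with the filter. Between genotypes in M0 it called 291 higher and 241 lower, beside 31 and 34 with the filter, so its calls are more liberal there. The DESeq2 Wald test called Pira12 (adjusted p = 0.037) and not Pira2 (0.050) or Lilra6 (0.058), where the value of Pira2 lay just above the limit. Pira13, which is outside the 10 symbols, went from 7, 3 and 3 counts to 17, 20 and 19 in WT and from 18, 6 and 7 to 29, 27 and 24 in KO. It passed the filter through its M2 libraries, which favoured a difference, so its log2 fold changes of 2.15 ± 0.39 in WT and 1.55 ± 0.40 in KO are a description. The pseudogene Pira2-ps2 was at 0 in every library and Pira2-ps1 between 0 and 2 counts.

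Lilra5 stayed near the limit of detection. Without IL-4 it had 7, 10 and 7 counts in WT and 21, 10 and 13 in KO, with IL-4 6, 3 and 5 and 6, 3 and 6, and it did not pass the filter for either comparison of M2 with M0. Without the filter its log2 fold change was -0.67 ± 0.51 in WT (adjusted p = 0.40, edgeR) and -1.34 ± 0.46 in KO (adjusted p = 0.018, edgeR). The DESeq2 Wald test called it in neither (adjusted p = 0.59 in WT and 0.15 in KO).

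Counted over the members, 4 of 8 were tested in WT, with 0 called higher and 3 lower, where 22.1% of all 14266 genes tested were called higher and 20.9% lower. None of the 4 was higher at an unadjusted p under 0.05, and the DESeq2 Wald test called 1 of 8 higher (Pira12) and 2 lower. In KO 7 of 8 were tested, with 3 called higher and 3 lower, where 17.4% of 14331 genes were called higher and 16.4% lower. The median log2 fold change of the members tested was -0.36 in WT and -0.31 in KO, beside -0.0012 and -0.0078 over all genes tested. Of the members tested, the M0 and M2 libraries of 3 in WT lay apart without overlap with M2 lower, and of 0 with M2 higher, where 28.2% and 28.7% of all genes did. In KO 4 lay apart with M2 lower and 3 with M2 higher, where 22.7% and 23.6% of all genes did. Pira12 and Lilra6 passed the filter through their M2 libraries, which favoured a difference, so these counts are no support. The plot of the response to IL-4 shows the 2 directions.

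**Figure D3:**
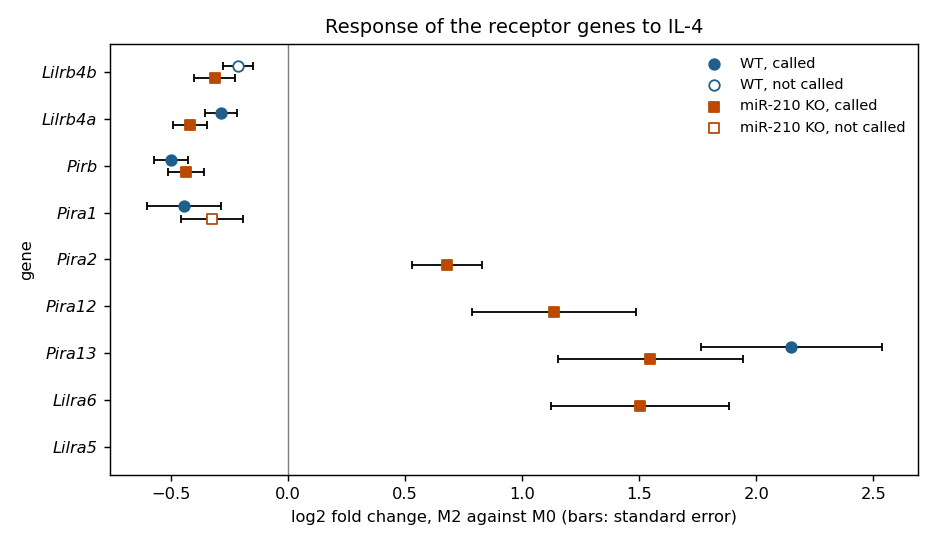
Log2 fold change of M2 against M0 (x axis) with its standard error for the members and Pira13 that passed the filter on low counts, in WT (circles) and KO (squares). Filled symbols were called. Lilrb4b, Lilrb4a, Pirb and Pira1 lie below 0 in both genotypes, and Pira2, Pira12, Pira13 and Lilra6 lie above 0 wherever they were tested.

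The response to IL-4 was then compared between genotypes by the interaction of genotype and polarization over all 12 libraries. None of 7 members tested was called, where 0% of 14825 genes were called by edgeR, 1327 genes had an unadjusted p under 0.05, and the DESeq2 Wald test called 74 genes and no member. The difference of the log2 fold changes, KO minus WT, was 0.07 ± 0.11 for Pirb, -0.13 ± 0.10 for Lilrb4a, -0.09 ± 0.11 for Lilrb4b and 0.13 ± 0.21 for Pira1. It was -0.75 ± 0.64 for Pira12 and -0.41 ± 0.78 for Lilra6. For Pira2, which has 4 counts in all in WT M0, it was -1.75 ± 0.58, the only member with an unadjusted p under 0.05, in both tools, and this value holds the same KO and WT counts by which the gene was known.

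Between KO and WT, Pira2 stood apart from the rest of the family in both states. Its counts were 2, 1 and 1 in WT against 84, 93 and 111 in KO without IL-4, and 7, 6 and 9 against 135, 161 and 107 with IL-4. Every KO library lay above every WT library. In both states the gene passed the filter through its KO libraries. Scaled for depth, KO M0 held 66.8 times the summed count of WT M0, with a 95% exact binomial interval from 25.8 to 247 that covers counting error only. In M2 the fitted log2 fold change was 4.19 ± 0.22 (SE), and mean normalized counts were 141 ± 17.3 in KO M2 and 7.76 ± 2.20 in WT M2 (SD, n = 3). The family was selected on this difference, so the interval and the SE describe it and are no test. Among markers of other cells, the 5 erythroid ones summed to between 0 and 4.90 CPM in WT and between 0.224 and 0.842 in KO, with the 4 globin genes at 0 in all KO libraries. The fibroblast markers, which lie near the floor, summed to between 0.883 and 1.28 CPM in WT M0 and between 1.80 and 2.27 in KO M0. The neutrophil markers summed to between 2.45 and 5.32 CPM in WT M2 and between 1.11 and 1.86 in KO M2, without overlap. The part of any of these in the difference was not tested.

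**Figure D4:**
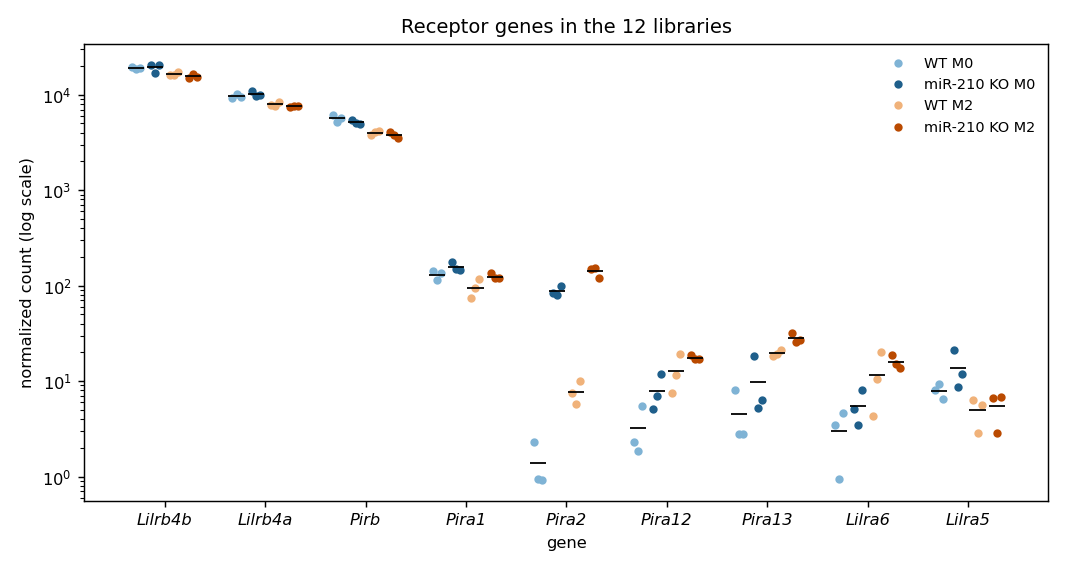
Normalized counts on a log scale (y axis) of 8 members and Pira13 (x axis) in each of 12 libraries, as 3 points per group with the mean as a line. For Pira2 the KO libraries lie between 80.2 and 153 and the WT libraries between 0.919 and 10.1, while the points of the 4 groups lie close together for Lilrb4b, Lilrb4a and Pirb.

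The other members differed far less between genotypes. In M0 the log2 fold change, KO against WT, was 0.26 ± 0.14 for Pira1, -0.14 ± 0.09 for Pirb, 0.07 ± 0.09 for Lilrb4a, 0.01 ± 0.09 for Lilrb4b and 0.77 ± 0.41 for Lilra5, and Pira12 and Lilra6 were not tested. In M2 it was 0.39 ± 0.15 for Pira1, -0.06 ± 0.06 for Pirb, -0.05 ± 0.05 for Lilrb4a, -0.08 ± 0.05 for Lilrb4b, 0.49 ± 0.33 for Pira12 and 0.47 ± 0.40 for Lilra6, and Lilra5 was not tested. The Pira1 libraries of KO lay above those of WT without overlap in both states, while those of Pirb, Lilrb4a and Lilrb4b overlapped. Of the members tested, 1 of 6 was called higher in M0, where 0.22% of 14089 genes were, and 1 of 7 in M2, where 0.408% of 13980 genes were, and in both cases this was Pira2, by which the family was chosen. None of the members tested was called lower in either state, where 0.241% and 0.572% of all genes were. Of the members tested, 2 lay apart without overlap with KO higher in M0, where 7.1% of all genes did, and 2 in M2, where 7.94% did, and 0 with KO lower, where 7.27% and 8.1% did. In both states the 2 were Pira2, by which the family was chosen, and Pira1, its closest copy, so these counts are no support. The DESeq2 Wald test called none lower either, and none was lower at an unadjusted p under 0.05 in either tool.

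Because Pira1 and Pira2 share most of their sequence, their counts were also added up. In WT, Pira2 held 1.60%, 0.806% and 0.680% of both genes' counts without IL-4 and 9.09%, 5.77% and 7.89% with it. In KO it held 32.4%, 35.1% and 41.0% in M0 and 52.5%, 56.1% and 50.5% in M2. The sum of both genes was 132 ± 14.3 normalized counts (SD, n = 3) in WT M0 and 245 ± 16.4 in KO M0, and 103 ± 23.0 in WT M2 and 266 ± 23.0 in KO M2. The stacked plot shows both parts in each library, and which of the copies the shared reads came from was not tested.

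**Figure D5:**
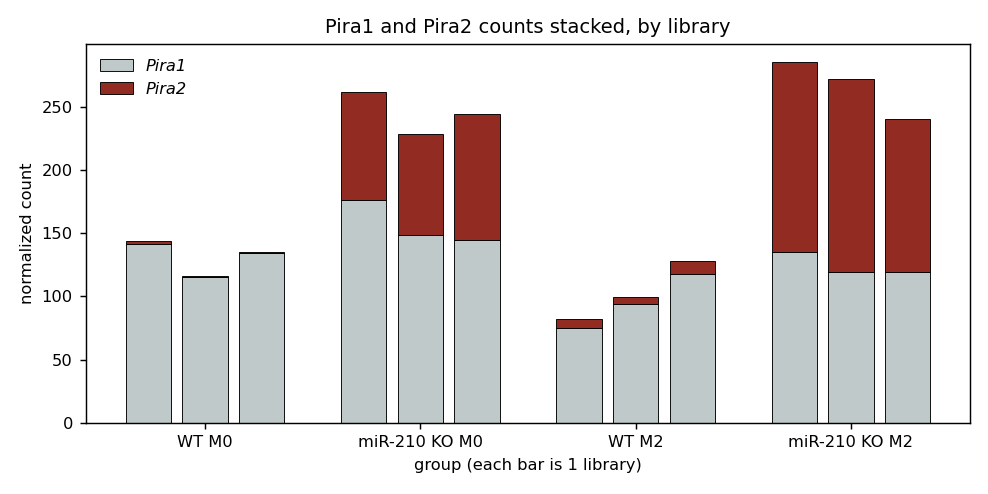
Normalized counts of Pira1 (grey) and Pira2 (red) stacked in each of 12 libraries (bars), by group, on a linear axis from 0. Pira2 is a thin cap in the WT libraries and reaches 50.5% to 56.1% of both genes' counts in KO M2, above a Pira1 part that is no smaller in KO than in WT on average.

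Summed over Pira1, Pira2 and Pira12, normalized counts were 135 ± 15 in WT M0, 253 ± 15.8 in KO M0, 116 ± 28.9 in WT M2 and 283 ± 23.8 in KO M2 (SD, n = 3). As a single feature this sum changed with IL-4 by -0.22 ± 0.16 on the log2 scale in WT (adjusted p = 0.30, edgeR) and by 0.17 ± 0.10 in KO (adjusted p = 0.23, edgeR), neither of them called. The fall of Pira1 and the rise of the others lie within these sums. Summed over Lilrb4a and Lilrb4b the change was -0.24 ± 0.07 in WT (adjusted p = 0.0087, edgeR), under the limit on the fold change, and -0.35 ± 0.08 in KO (adjusted p = 0.0042, edgeR), which was called.

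The balance of the pair was expressed as the share of Pirb in the counts of Pirb and the 5 activating genes of the cluster, Pira1, Pira2, Pira12, Pira13 and Lilra6. Pirb held 97.6% ± 0.119 of these counts in WT M0 and 95.1% ± 0.265 in KO M0, and 96.5% ± 0.717 in WT M2 and 92.1% ± 0.180 in KO M2 (SD, n = 3). Every KO library was below every WT library of the same state, and Pira2, which was known to differ, is part of this share. The lowest share of Pirb in any library was 91.9%.

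The genes that carry the signal were described from lists chosen for their function. Of 11 genes of the activating arm, 1 was called higher with IL-4 and 4 lower in each genotype, where 22.1% of all genes were higher and 20.9% lower in WT and 17.4% and 16.4% in KO. They had a median log2 fold change of -0.15 in WT and -0.01 in KO, beside -0.0012 and -0.0078 over all genes. Blnk, an adaptor downstream of Syk, rose by 1.30 ± 0.07 in WT and 1.22 ± 0.08 in KO. Vav1, a guanine nucleotide exchange factor, changed by -0.82 ± 0.07 and -0.70 ± 0.09, and Plcg2, a phospholipase, by -0.65 ± 0.10 and -0.55 ± 0.10. Fcer1g, which encodes the FcRγ chain of PIR-A and is named here after its values were seen, fell from 4930 ± 466 to 3383 ± 61.0 normalized counts in WT and from 5212 ± 441 to 3571 ± 145 in KO, and was called in both. Between genotypes edgeR and the DESeq2 Wald test called 0 of these 11 genes in M0, where 2 had an unadjusted p under 0.05. In M2 both called 1, Blnk, which was lower in KO by -0.28 ± 0.06. By edgeR 0.22% of all genes were called higher in KO and 0.241% lower in M0, and 0.408% and 0.572% in M2. An unadjusted p under 0.05 was found for 1410 of 14089 genes in M0 and 1498 of 13980 in M2.

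Of 10 genes of the inhibitory arm, 1 was called higher and 4 lower with IL-4 in WT, and 1 higher and 5 lower in KO, beside 22.1% and 20.9% of all genes in WT and 17.4% and 16.4% in KO. Dok2, an adaptor that recruits a Ras inhibitor, rose by 1.67 ± 0.07 in WT and 1.36 ± 0.09 in KO. Lyn, the kinase that phosphorylates ITIMs, changed by -1.26 ± 0.06 and -1.18 ± 0.08. Ptpn6, which encodes SHP-1 and is named after its values were seen, changed by -0.37 ± 0.07 and -0.40 ± 0.08 and was called in both. The medians were -0.16 and -0.30, and 0 of the 10 were called between genotypes in either state by edgeR or the DESeq2 Wald test, where 3 had an unadjusted p under 0.05 in M0 and 3 in M2. Over all genes edgeR called 0.22% higher in KO and 0.241% lower in M0, and 0.408% and 0.572% in M2. It gave 1410 of 14089 and 1498 of 13980 genes an unadjusted p under 0.05.

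Of 10 ligand genes tested, 3 were called higher and 5 lower with IL-4 in each genotype, against 22.1% higher and 20.9% lower of all genes in WT and 17.4% and 16.4% in KO. Fn1, which encodes fibronectin, a ligand of gp49B, rose from 19.2 ± 7.94 to 16334 ± 1137 normalized counts in WT and from 27.2 ± 4.48 to 16308 ± 2472 in KO. Itgb3, the β3 chain of integrin αvβ3, rose by 5.96 ± 0.19 and 5.79 ± 0.22 on the log2 scale, and Angptl2, a secreted ligand of PIR-B, by 4.23 ± 0.11 and 4.15 ± 0.10. H2-K1, a classical MHC class I gene and named after its values were seen, changed by -0.56 ± 0.10 and -0.54 ± 0.10 and was called in both. Between genotypes 0 ligand genes were called by edgeR or the DESeq2 Wald test, of 11 tested in M0 and 10 in M2, where 0 and 1 had an unadjusted p under 0.05. Over all genes edgeR called 0.22% higher in KO and 0.241% lower in M0, and 0.408% and 0.572% in M2. It gave 1410 of 14089 and 1498 of 13980 genes an unadjusted p under 0.05.

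Other paired receptors of myeloid cells were counted in the same way, with 22.1% of all genes called higher and 20.9% lower in WT and 17.4% and 16.4% in KO. Among 13 other ITIM-bearing myeloid receptors 6 were called higher and 4 lower in WT, and 6 higher and 5 lower in KO. Siglece changed by -3.02 ± 0.42 in WT and -3.69 ± 0.31 in KO, and Cd300lf by -2.14 ± 0.15 and -1.91 ± 0.13. Pecam1 was among those called higher in WT, at 2.37 ± 0.25. Among other activating receptors that pair with FcRγ, DAP12 or DAP10, 5 were called higher and 9 lower in each genotype, of 17 tested in WT and 16 in KO. Fcgr1, the high-affinity IgG receptor, changed by -2.97 ± 0.12 and -2.59 ± 0.15. Cd300ld was among those called higher in WT, at 2.37 ± 0.07. Between genotypes the ITIM-bearing list had 1 gene called by edgeR in M0, Cd72, at -0.70 ± 0.11, and 1 in M2, Clec12a, at -0.39 ± 0.06. The DESeq2 Wald test called 2 and 1. Of this list 6 of 13 tested in M0 and 5 of 12 in M2 had an unadjusted p under 0.05. The activating list had 0 of 16 called in M0 by edgeR, 10 with an unadjusted p under 0.05 and 3 by the DESeq2 Wald test. In M2 edgeR called 3 of 16, Sirpb1a (-0.87 ± 0.14) and Sirpb1c (-0.69 ± 0.09), both lower in KO, and Clec4n (0.37 ± 0.07), which was higher. There 8 had an unadjusted p under 0.05. Over all genes edgeR called 0.22% higher in KO and 0.241% lower in M0, and 0.408% and 0.572% in M2. It gave 1410 of 14089 and 1498 of 13980 genes an unadjusted p under 0.05.

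The genes around the cluster were looked at for the same contrast. Within 500 kb of the Pira genes 74 other genes are annotated, of which 18 were tested in M0 and 21 in M2, and 0 were called between KO and WT in either state by edgeR or the DESeq2 Wald test. Over all genes edgeR called 0.22% higher in KO and 0.241% lower in M0, and 0.408% and 0.572% in M2. At an unadjusted p under 0.05 there were 0 neighbours in M0 and 4 in M2, beside 1410 of 14089 and 1498 of 13980 genes. Pira13 was among the 4, at 0.54 ± 0.23 in M2, with KO above WT in every library. With IL-4, 7 of 20 tested were called higher and 1 lower in WT (22.1% and 20.9% of all genes), and 6 of 22 higher and 1 lower in KO (17.4% and 16.4% of all genes). Tarm1, which encodes an FcRγ-associated receptor of myeloid cells, rose by 6.30 ± 0.29 in WT and 6.22 ± 0.27 in KO.

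Genes whose levels were most like those of Pira2 over the 12 libraries were sought among 11383 protein-coding genes, by Pearson's correlation of log2 CPM, as a description of libraries that share their groups and batches. They were mt-Nd3 (r = 0.973), H4c17 (r = 0.967) and Slc15a2 (r = 0.965), which share with Pira2 the split of the libraries by genotype. mt-Nd3, a mitochondrially encoded subunit of complex I, stood at 0.997 ± 0.929 normalized counts in WT and 40.0 ± 5.32 in KO without IL-4, and at 1.42 ± 0.713 and 56.6 ± 7.70 with it (SD, n = 3). H4c17, a histone H4 gene, had 6.85 ± 3.33 and 395 ± 69.7 in M0, and 8.63 ± 1.64 and 360 ± 18.4 in M2. Slc15a2, a peptide transporter, had 24.0 ± 3.13 and 106 ± 19.5 in M0, and 29.2 ± 7.77 and 135 ± 2.38 in M2.

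The genes most like Pirb were H2-T24 (r = 0.986), Apobec3 (r = 0.985) and Isg20 (r = 0.984), whose libraries split by polarization as those of Pirb do. H2-T24, a nonclassical MHC class I gene, went from 2715 ± 488 normalized counts to 992 ± 82.6 with IL-4 in WT (SD, n = 3). Apobec3, a cytidine deaminase that restricts retroviruses, had 928 ± 80.3 and 596 ± 24.4, and Isg20, an exonuclease, had 170 ± 51.1 and 35.0 ± 4.97.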

How the data were processed

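RNA from 12 macrophage cultures was analysed, 3 in each of 4 groups. The authors trimmed the reads (Trimmomatic), removed duplicates (Picard), aligned to GRCm39 (STAR) and counted pairs per gene with strand (featureCounts), and deposited raw counts of 56941 genes, in 4 tables that each hold a pair of groups. Removing duplicates can lower the counts of abundant genes. The deposited normalized signal, which is count over the library's size factor within a pair, leaves out genes under 5 counts in sum and was used only as an alternative. How reads that match several genes were treated is not given in the sources used here.

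Symbols and coordinates came from GENCODE M39, which left 618 identifiers unmatched. Columns name the group of a library but not its sample. Genes were tested with the edgeR 4.0.16 quasi-likelihood test in R 4.3.3 (TMM, filterByExpr) on the 6 libraries of a comparison, or all 12 for the interaction, with Benjamini-Hochberg adjustment over all genes tested. DESeq2 1.42.0 was an alternative. The standard error is the log2 fold change over the square root of F. Normalized counts are TMM-scaled over all 12 libraries for members, summed genes and the genes most like them, and over the 6 libraries of a comparison for the other lists. Libraries within a group were distinct (chi-square per degree of freedom of their counts between 1.80 and 8.96), and each was used as 1 sample. Levels per length used the canonical transcript, exact shared stretches were matched to all transcripts of the counted genes on both strands, and sequences were aligned with Biopython 1.88. The tests were checked on simulated counts, in which the share of false calls by edgeR was above the limit set on the adjusted p in every comparison.

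The members and lists were chosen with earlier results of these data known. The genes named are all members, other genes with a family symbol, up to 3 genes per list and comparison with the largest changes among those called without overlap, marker genes, and for Pira2 and Pirb the 3 genes of highest correlation. Outside this rule Fcer1g, Ptpn6, H2-K1, Gm49339 and Gm15931 were named after their values were seen. Protein sequences are not used here. Alternatives were the DESeq2 Wald test, RLE normalization, no filter or 1 CPM in 3 libraries, each library left out, all 12 libraries in a fit, a limit of 1 (log2) or none on the fold change, near-identical genes summed, and the deposited normalized values for the sums.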

Additional observations from a re-analysis of the deposited data

How the results depend on the processing

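Counts of members called with IL-4 moved most in WT, where 0 were called higher. With the DESeq2 Wald test 1 was called higher, without the filter on low counts 3, with a fit of all 12 libraries 3, and with a library left out between 0 and 2. The number called lower in WT, 3, became 0 when a log2 fold change beyond 1 was required, 1 with near-identical genes summed, and between 1 and 3 with a library left out, 1 being without the library numbered 2 of WT M2. In KO the 3 called higher became 1 with the DESeq2 Wald test and 1 with near-identical genes summed, and the 3 called lower became 0 with a limit of 1. Filters, limits and sums change these counts by changing which genes are tested or called, and for the other settings the cause was not tested. The summed count of both Lilrb4 genes in WT M0 was 28920 and moved to 28112 with the deposited normalized values, by more than the SD between libraries. Of the members' log2 fold changes, 191 of those recomputed from all libraries kept their direction and call, 10 lost a call and 1 gained one. With a library left out 210 kept both, 13 lost a call and 5 changed sign, all of them uncalled. These were Lilrb4b between genotypes in M0 when library 1 or 3 of KO M0 was dropped (range over the libraries -0.046 to 0.095), the interaction of Pira1 without the library numbered 1 of WT M2 (range -0.022 to 0.29), and the interaction of Lilra6 without the library numbered 2 of WT M0 or 3 of WT M2 (range -0.91 to 0.19). No paired analysis was possible because the numbers 1 to 3 in the column names are not tied to samples or animals. Depth limits Pira2 in WT, Pira12, Lilra6 and Lilra5, which held few counts per library.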
